A study of Mus musculus with 36 samples.

Results

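Pou5f1 (encoding OCT4), Sox2, Klf4 and Myc are the 4 transcription factor genes of the reprogramming cassette used in this study, and their RNA was followed through cell fractions from fibroblasts to embryonic stem (ES) cells. They were found by gene symbol, and all 4 are listed in each of the 3 count tables, which hold 25239, 48440 and 25229 genes. The first table holds 20 libraries of sorted processing bodies (P-bodies) and matching cytoplasm, with 2 libraries per fraction for each of 5 cell states. Naive ES cells (v6.5, from C57BL/6 and 129S4Sv/Jae parents) grew in 2i/LIF, and primed ES cells in activin A and bFGF. Mouse embryonic fibroblasts (MEFs) came from mid-gestation embryos. The reprogramming MEFs carried a doxycycline-inducible cassette of all 4 factors in the 3′ untranslated region (UTR) of Col1a1, the M2-rtTA activator at Rosa26 and an EGFP reporter under Pou5f1 regulatory elements. They were induced for 3 days with a control hairpin or with a hairpin against Nudt21, which encodes a cleavage and polyadenylation factor. Uninduced MEFs served as the start. The study's methods derive MEFs from embryos that carry the cassette, while the labels do not say so for these libraries. P-bodies were sorted as GFP-LSM14A particles from cells transduced with a lentivirus under the EF1a promoter. By the study's methods, the cytoplasm libraries come from the fraction before sorting, a resuspended pellet of the lysate. That fraction still holds the P-bodies.

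The second table holds the same fractions, 2 libraries each, from Ago2 knockout (KO) ES cells, single-cell-derived clones of the v6.5 line. The third holds polysome and total RNA of naive ES cells in which both Ddx6 alleles carry a degradation tag, a line from 1 clone. It has 3 libraries per fraction for controls and for cells given dTAG-13, which triggers degradation of the tagged protein (DDX6 degron). By the study's methods, dTAG-13 acted for hours, not days, before these cells were harvested. Control and treated cells alike were given cycloheximide, a translation inhibitor, before and during harvest. Reads from the cassette coding sequences fall on the endogenous genes in these counts, so at day 3 endogenous and cassette RNA cannot be told apart.

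OCT4 is a POU-domain protein that binds DNA together with the HMG-box protein SOX2 at enhancers of pluripotency genes. KLF4 is a zinc-finger protein, and in naive ES cells it acts beside its relatives KLF2 and KLF5. MYC, which pairs with MAX to bind E-box DNA, drives growth and proliferation genes, and its own mRNA is short-lived. P-bodies are cytoplasmic granules of RNA with decay and repression proteins such as DDX6, LSM14A and EDC4, and mRNAs held in them are largely untranslated. MicroRNAs bound to AGO proteins such as AGO2 repress mRNAs through short seed matches, mostly in the 3′ UTR.

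The 4 loci differ in structure (GENCODE M21, GRCm38, the build of the files). Pou5f1 (chr17:35506018-35510772, plus strand) has 5 exons in its longest coding transcript of 1362 bases, of which 221 are 3′ UTR. Its exons overlap those of Gm19553 on the opposite strand, and the kit of the fraction libraries does not mark strand, so reads of the overlap could belong to either gene. Sox2 (chr3:34650405-34652461, plus strand) has 1 exon and 2057 bases, of which 1086 are 3′ UTR. Klf4 (chr4:55527143-55532466, minus strand) has 5 exons and 3029 bases with a 3′ UTR of 982, and Myc (chr15:61985391-61990374, plus strand) has 3 exons and 2338 bases with a 3′ UTR of 442. Transcript GC content was 57.6% in Pou5f1, 54.6% in Klf4, 53.3% in Myc and 50.5% in Sox2. These values stood at the 88.6th, 74.6th, 68th and 53.3rd percentiles of 9945 genes with a mean of at least 10 CPM (counts-per-million of the library total), whose median was 49.9%.

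The 3′ UTRs were searched on the sense strand for the AU-rich pentamer ATTTA and for matches to bases 2 to 8 of 4 microRNAs, since the fractions sort RNAs that may be held through their 3′ ends. Sox2 held 4 pentamers, Myc 2, Klf4 1 and Pou5f1 none. As a background, the first bases of every 3′ UTR at least as long as that of the member were searched in the same way. Of these windows 75.9% held the pentamer at the length of Sox2, 45.8% at that of Myc, 72.6% at that of Klf4 and 25.6% at that of Pou5f1. The stretches around 2 of the Sox2 sites and both Myc sites are shown because these genes moved furthest between fractions, with the pentamer in capitals and the bases 5′ to 3′ of the mRNA strand.
Sox2, chr3:34651822-34651850, plus strand: cttttgtacagtATTTAtcgagataaaca
Sox2, chr3:34652136-34652164, plus strand: atatcgttggtaATTTAtaatagcttttg
Myc, chr15:61990135-61990163, plus strand: taacagatttgtATTTAattgttttttta
Myc, chr15:61990272-61990300, plus strand: ataattttttttATTTAaagacattttca

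The microRNAs are shown with the seed in capitals (mature sequences from RefSeq, GRCm38.p6), because the Ago2 KO libraries bear on RNAs bound through such seeds. The miR-294 family is abundant in ES cells and let-7 in differentiated cells, miR-34a is induced by p53, and let-7a and miR-300 are among the microRNAs the study examined.
mmu-let-7a-5p: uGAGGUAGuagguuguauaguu
mmu-miR-294-3p: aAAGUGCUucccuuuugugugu
mmu-miR-34a-5p: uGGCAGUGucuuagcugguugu
mmu-miR-300-3p: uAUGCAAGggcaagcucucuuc
The letters searched were CTACCTC for let-7a-5p. They were AGCACTT for miR-294-3p. For miR-34a-5p they were CACTGCC. For miR-300-3p they were CTTGCAT. The only match in the 4 3′ UTRs was that of miR-34a-5p at base 25 of the Klf4 3′ UTR, printed with the match in capitals.
Klf4, chr4:55528083-55528111, minus strand: gatgtgacccaCACTGCCaggagagagag
Of windows as long as the Klf4 3′ UTR, 11% held this match, and the matches of let-7a-5p, miR-294-3p and miR-300-3p were in 6.38%, 11% and 6.08%. A match is only a string of letters, and an absent one covers only these windows.

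Library totals ran from 6769731 to 31185874 reads in the fraction table, 15624401 to 17486268 in the Ago2 KO table and 13308782 to 29362195 in the polysome table. No replicate pair agreed within sampling noise (chi-square per degree of freedom of at least 1.82 over 24 pairs), so each library counted once. The SD of log2 differences between replicates ranged from 0.126 to 0.439 in the fraction table, where it was highest in naive cytoplasm, and reached 0.616 between both Ago2 KO cytoplasm libraries. The targeted genes followed their labels, with Nudt21 at 4.99 to 5.94 CPM in the knockdown against 89.1 to 115 CPM in day 3 control, and Ago2 at 2.57 to 4.52 CPM in the KO. Ddx6 RNA, where the tag acts on the protein, was at 186 to 199 CPM in degron total RNA against 208 to 238 CPM in controls. In polysomes it was at 110 to 118 CPM against 128 to 160 CPM. The 12 fibroblast markers summed to 40820 to 44279 CPM in MEF cytoplasm and 77.6 to 182 CPM in naive and primed fractions. In the same fractions the 10 naive markers summed to 2404 to 3182 CPM in naive and 382 to 396 CPM in primed cells, and to 48.7 to 54.5 CPM in MEF fractions. The study describes the replicates of its sequencing assays as biological, while the labels do not say which cultures same-group libraries come from. The p-values measure the spread between these libraries.

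Levels were first compared across states. In MEFs Pou5f1 and Sox2 were close to absent, Klf4 and Myc were present, and at day 3 all 4 were abundant. Naive ES cells held the most Pou5f1 RNA in both fractions and the most Sox2 RNA in P-bodies, but almost no Myc. Primed cells held Myc again and little Klf4.

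In MEFs, Pou5f1 had 4.5 and 2.5 reads in both P-body libraries, against 2 and 3 in the cytoplasm. At day 3 it stood at 193 and 180 CPM in the cytoplasm and 93.8 and 53.9 CPM in P-bodies. In naive ES cells it reached 611 and 824 CPM in the cytoplasm and 341 and 349 CPM in P-bodies, and in primed cells 201 and 216 CPM and 129 and 133 CPM. Every cytoplasmic value thus lay above every P-body value of the same state outside MEFs. By mean cytoplasmic level the order was naive, day 3 Nudt21, primed, day 3 control and MEF, with no overlap between neighbours, although primed exceeded day 3 control by only 22.1 CPM where the SDs were 11 and 9.71 (n = 2 each).

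Sox2 had 2 reads in each MEF P-body library and 2 and 1 in MEF cytoplasm. At day 3 it stood at 138 and 141 CPM in the cytoplasm and 73.4 and 61.0 CPM in P-bodies. In naive ES cells this relation was turned over, with 83.6 and 157 CPM in the cytoplasm and 756 and 720 CPM in P-bodies, and primed cells had 50.5 and 57.6 CPM against 234 and 252 CPM. The naive cytoplasm libraries thus lay on either side of both day 3 values. In P-bodies the order was naive, primed, day 3 Nudt21, day 3 control and MEF without overlap.

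Klf4 was present in every state. It had 45.2 and 40.8 CPM in MEF cytoplasm and 72.6 and 92.2 CPM in MEF P-bodies, then 296 and 308 CPM and 173 and 126 CPM at day 3. Naive ES cells held 198 and 142 CPM in the cytoplasm and 222 and 229 CPM in P-bodies. Primed cells had the least, with 6.35 and 8.23 CPM in the cytoplasm and 10.5 and 9.90 CPM in P-bodies. Only the day 3 Nudt21 and naive P-body groups overlapped among neighbours in the order.

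Myc had 81.3 and 72.4 CPM in MEF cytoplasm and 49.2 and 44.5 CPM in MEF P-bodies, and at day 3 held 314 and 324 CPM and 198 and 196 CPM. Naive ES cells held 3 and 13 reads in the cytoplasm and 26 and 37 reads in P-bodies, or 0.235 and 1.05 CPM and 2.41 and 2.94 CPM. Primed cells were higher at 54.5 and 67.1 CPM in the cytoplasm and 12.4 and 15 CPM in P-bodies. The naive libraries of the polysome and Ago2 KO tables, counted separately, held 11 to 33 reads of Myc each.

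**Figure D1:**
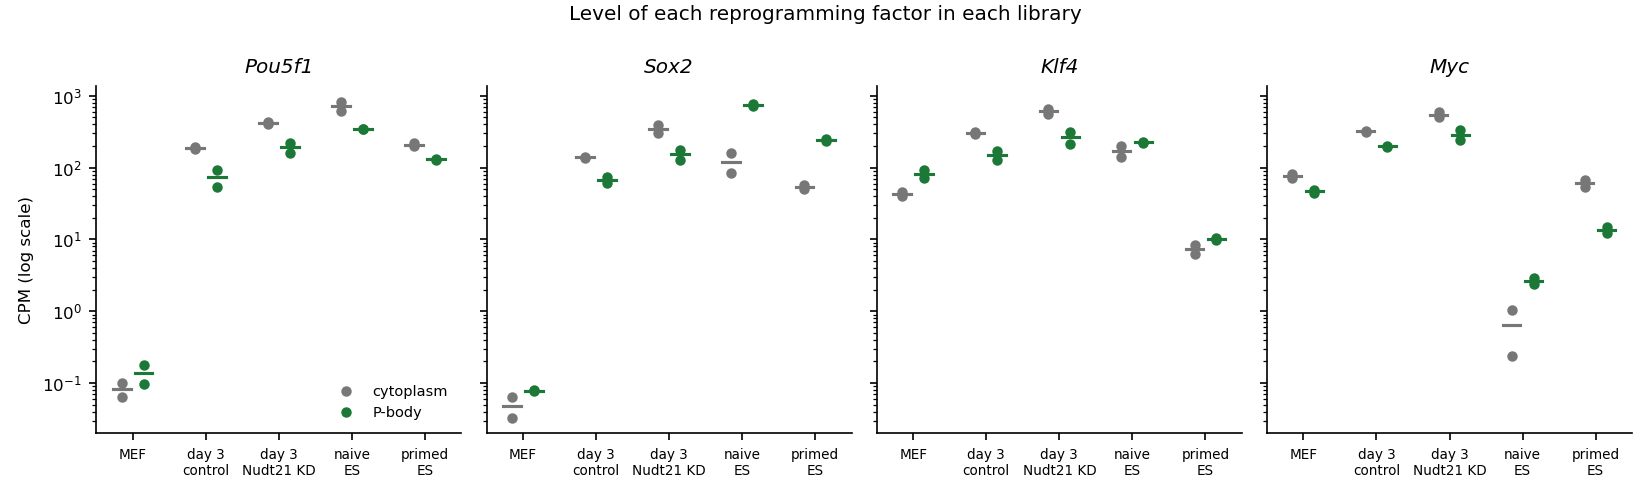
Level in CPM on a log axis for each gene, with 1 point per library, horizontal bars at the mean of 2 libraries, and grey for cytoplasm and green for P-bodies in 5 cell states. Sox2 sits higher in P-bodies than in the cytoplasm in naive and primed cells and lower at day 3, and Myc lies at 2.94 CPM or less in naive ES cells.

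Between genes, levels were set per kilobase of transcript. In naive cytoplasm Pou5f1 stood at 527 ± 110 CPM per kb, Sox2 at 58.6 ± 25.3, Klf4 at 56.1 ± 13.1 and Myc at 0.276 ± 0.248 (SD, n = 2). In naive P-bodies Sox2 led at 359 ± 12.3 CPM per kb, before Pou5f1 at 253 ± 4.11 and Klf4 at 74.4 ± 1.55. The factor that was most abundant therefore differed between fractions of the same cells. In MEF cytoplasm Myc (32.9 ± 2.69) exceeded Klf4 (14.2 ± 1.04) on the same scale.

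The start of reprogramming was examined by comparing day 3 control with MEF. All 4 factors rose in the cytoplasm, where 35.5% of 16108 genes rose, and all 4 rose in P-bodies, where 20.5% of 16499 did. From counts, Pou5f1 was 2289-fold higher in day 3 cytoplasm (95% exact counting interval 980 to 7050) and 561-fold higher in P-bodies (272 to 1395). Sox2 was 2856-fold higher in the cytoplasm (977 to 13853) and 871-fold higher in P-bodies (340 to 3199). These intervals cover counting error only, since the MEF groups held 3 to 7 reads. Klf4 rose by a log2 fold change of 2.65 ± 0.07 in the cytoplasm (edgeR adjusted p of 2.72e-14) and 0.73 ± 0.20 in P-bodies (0.0129). The P-body call of Klf4 was lost without MEF P-body replicate 1 (edgeR adjusted p of 0.150) or day 3 control P-body replicate 1 (0.0827). Myc rose by 1.89 ± 0.07 and 1.95 ± 0.17 (edgeR adjusted p of 1.07e-12 and 8.56e-06).

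The cassette encodes the 4 factors in 1 transcript, so the gain was also put on the scale of coding length. Day 3 control minus MEF in the cytoplasm came to 176 ± 9.17 CPM per coding kb for Pou5f1, 146 ± 2.45 for Sox2, 178 ± 6.37 for Klf4 and 177 ± 7.14 for Myc (combined SD of both groups). The gains of Pou5f1, Klf4 and Myc thus lay within 1 SD of each other, while that of Sox2 was lower. In P-bodies the gains were 69.6 ± 26.6, 69.9 ± 9.19, 45.9 ± 24.7 and 110 ± 2.58 in the same order. Col1a1, whose 3′ UTR holds the cassette, was at 11327 to 12609 CPM in MEF cytoplasm and at 867 to 899 CPM in that of day 3. The 12 fibroblast markers summed to 6323 to 6460 CPM at day 3, with none at 0, and the 6 epithelial markers of early reprogramming stood at 158 to 170 CPM against 20.6 to 22.5 CPM in MEFs. The part of this shift in cells in the 4 genes' values was not tested, and in bulk samples fewer cells of a type and less RNA per cell cannot be told apart.

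**Figure D2:**
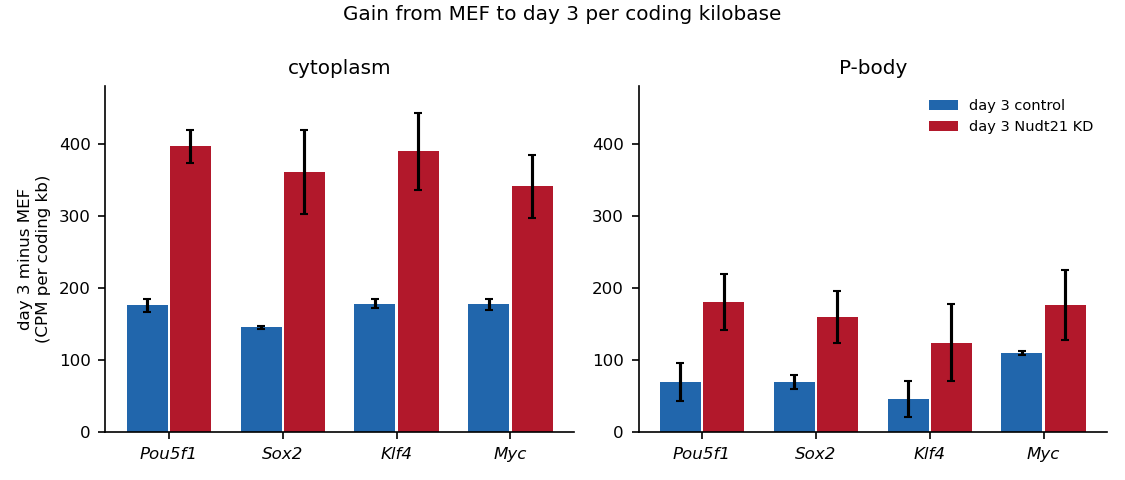
Gain from MEF to day 3 in CPM per kilobase of coding sequence for each gene, in the cytoplasm (left) and P-bodies (right), with bars at the difference of means over 2 libraries per group and lines at the combined SD. In the cytoplasm the control gains lie between 146 and 178 and those with Nudt21 knockdown between 341 and 396.

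Beside the 4 factors, 4 lists of genes around them were counted, namely partners and targets of OCT4 and SOX2, relatives in the KLF, SOX and POU families, the MYC network of MAX partners, and textbook MYC targets. Of 18 OCT4-SOX2 partners and targets 12 were tested in the cytoplasm, of which 6 rose and 4 fell, with a median log2 fold change of 1.43 against 0.0375 over all genes. Over all genes tested 35.5% rose and 33.7% fell. Fgf4, a growth factor gene with a joint OCT4 and SOX2 site, was among those that rose, from 0 and 0.0664 CPM in MEFs to 60.1 and 61.1 CPM at day 3. Sall4, a zinc-finger gene, also passed the test, at a mean of only 0.623 CPM. Nanog was at −0.79 ± 0.80 (edgeR adjusted p of 0.398), and Spp1, which encodes osteopontin, fell by 3.05 on the log2 scale. Of 15 MYC targets 12 rose and 2 fell (median 0.51), led by Ccnd2, a cyclin gene, at 1.58 ± 0.05, while Ldha, a glycolysis gene, fell by 1.06 on the log2 scale. In the MYC network 6 of 11 rose and 2 fell, with Mxd4 at 0.98 ± 0.08 and Mga, both genes of MAX partners, at −0.98 ± 0.06. Max rose by 0.50 ± 0.09 and Mycn by 2.22 ± 0.39, while Mycl, a further MYC paralogue, fell by 0.30 on the log2 scale. Of the 13 KLF, SOX and POU relatives tested 4 rose, among them Sox11 at 1.05 ± 0.08 and Klf5 at 0.59 ± 0.13, and 4 fell, among them Klf2 by 2.74 on the log2 scale.

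Naive ES cells were then set against day 3. In the cytoplasm, where 65.3% of 16744 genes were called, Pou5f1 was higher by 1.93 ± 0.15 (edgeR adjusted p of 2.36e-04) and Klf4 lower, with a log2 fold change of −0.84 ± 0.19 (0.0121). The Klf4 call was lost without either day 3 control cytoplasm library (edgeR adjusted p of 0.0607 and 0.0721). Sox2 was not called, at −0.24 ± 0.26 (edgeR adjusted p of 0.457), and was at 0.13 without naive cytoplasm replicate 1 and at −0.72 ± 0.09 without replicate 2, where it was called as lower (edgeR adjusted p of 1.89e-09). Myc was 500-fold higher at day 3 than in naive cells (95% exact counting interval 308 to 875). In P-bodies, where 62.4% of 16414 genes were called, Pou5f1 was higher in naive cells by 2.22 ± 0.27, Sox2 by 3.46 ± 0.14 and Klf4 by 0.60 ± 0.18 (edgeR adjusted p of 0.00149, 5.25e-05 and 0.0302). The Klf4 call was lost without either naive P-body library (edgeR adjusted p of 0.0989 and 0.113). Myc was 73.0-fold higher in day 3 P-bodies (57.0 to 95.1).

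The ends of the series were also compared. Between naive cells and MEFs 71.8% of 16871 genes were called in the cytoplasm and 76.8% of 17023 in P-bodies, and all 4 factors were among them in both. Klf4 was higher in naive cells by 1.74 ± 0.21 in the cytoplasm and 1.23 ± 0.13 in P-bodies. Pou5f1 was 8776-fold higher in naive cytoplasm (95% exact counting interval 3760 to 27031) and 2524-fold higher in P-bodies (1224 to 6279). Sox2 was 2450-fold higher in the cytoplasm (837 to 11885) and 9421-fold higher in P-bodies (3679 to 34581). Myc went the other way and was 121-fold higher in MEF cytoplasm (74.2 to 211) and 17.3-fold higher in MEF P-bodies (13.5 to 22.6).

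The lists were counted for naive cytoplasm against day 3 control, where 33.1% of all genes tested were higher and 32.3% lower. Of the OCT4-SOX2 partners and targets 17 of 18 were higher. That list shares genes such as Nanog and Esrrb with the naive markers. Of the relatives 10 of 16 were higher and 5 lower, of the MYC network 3 and 4 of 11, and of the MYC targets 5 and 3 of 15. Nanog, a homeobox gene of naive cells, had 623 to 715 CPM there and 0.0748 to 0.577 CPM at day 3. Fgf4 had 341 to 345 CPM, above the 60.1 to 61.1 CPM of day 3 control. Tdgf1, which encodes a NODAL coreceptor, had the largest fitted change and was at 0 in both day 3 control libraries. Klf2 and Klf5 were higher by 6.11 ± 0.26 and 3.35 ± 0.14, and Mycn by 4.86 ± 0.28. Sox15 led the relatives at 6.30 ± 0.78 and Cad, an enzyme gene of pyrimidine synthesis, led the MYC targets at 2.13 ± 0.11. The largest falls among the MYC targets, the relatives and the MYC network were those of Ccnd2 (−10.91), Sox11 (−8.44) and Mxd4 (−6.05) in that order, and Max was lower as well at −0.89 ± 0.20.

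From naive to primed ES cells, 43.8% of 16125 genes were called in the cytoplasm and 67.9% of 16177 in P-bodies, and all 4 factors were called in both. Klf4 fell most, with log2 fold changes of −4.74 in the cytoplasm and −4.69 in P-bodies. Those of Pou5f1 were −1.97 and −1.63, and those of Sox2 −1.34 and −1.83. The cytoplasmic Sox2 call was lost without either primed cytoplasm library (edgeR adjusted p of 0.0947 and 0.0656). Myc rose by 6.35 ± 0.44 in the cytoplasm and 2.11 ± 0.20 in P-bodies (edgeR adjusted p of 4.07e-04 and 3.74e-09), or 96.2-fold (58.9 to 169) and 5.07-fold (3.86 to 6.75) from the summed counts. Among relatives, Klf2 fell by 4.23 and Klf5 by 2 on the log2 scale in the cytoplasm, Mycn fell by 1.03, and Mycl rose by 1.18 ± 0.19. Of 18 OCT4-SOX2 partners and targets 14 fell and 3 rose there, where 22.1% of all genes tested fell and 21.6% rose. Nanog, Esrrb and Prdm14 of this list are also among the naive markers. The genes that rose included Lefty1, a NODAL antagonist, at 6.94 ± 0.36 and Lin28a, an RNA-binding protein gene, at 5.81 ± 0.59. Prdm14, a regulator of naive and germ cells, fell most at −5.95 ± 0.34. Sox11 rose by 6.21 ± 0.49. Of the MYC targets, Odc1, an enzyme gene of polyamine synthesis, rose most (1.01 ± 0.11) and Mcm5, a replication helicase gene, fell most (−0.94 ± 0.18).

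P-body enrichment, the log2 ratio of P-body to cytoplasmic RNA within a state, was then tested. The cytoplasm is the fraction before sorting, which still holds the P-bodies, so the ratio sets a part against the whole. Sox2 was enriched in P-bodies of naive, primed and Ago2 KO cells and depleted from them at day 3. Pou5f1 was called as depleted in naive and primed cells and at day 3 with Nudt21 knockdown. Its day 3 control ratio was not called, at −1.32 against −1.13 with knockdown. Klf4 was called as enriched in MEFs and primed cells, with similar ratios in primed (0.51) and naive cells (0.62, not called). Myc was enriched in naive cells and depleted in MEFs and primed cells. Klf4 and Myc were depleted at day 3 with Nudt21 knockdown, at −1.20 and −0.90. Their day 3 control ratios were not called, at −1.01 and −0.68.

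In naive ES cells, where 38% of 15630 genes were called (22.6% enriched and 15.4% depleted), 3 of the 4 genes were called. Sox2 was enriched by 2.85 ± 0.28, a 7.20-fold difference (edgeR adjusted p of 0.00143), above 97.1% of all genes tested. The same-numbered libraries gave ratios of 9.04 and 4.57, with the spread mostly from the cytoplasm. Pou5f1 was depleted at −0.83 ± 0.14 (edgeR adjusted p of 0.00823). Klf4 was at 0.62 ± 0.19 (0.0541), and was called with DESeq2 (0.0197) and without either naive cytoplasm library (4.46e-45 and 9.87e-09), when it was at 0.93 and 0.39. Myc was enriched by 2.28 ± 0.65 (edgeR adjusted p of 0.0418), from 63 reads in P-bodies and 16 in the cytoplasm, a ratio of 4.24 (95% exact counting interval 2.42 to 7.86). The Pou5f1 and Myc calls were lost without either naive P-body library, at edgeR adjusted p of 0.102 and 0.109 for Pou5f1 and 0.138 and 0.186 for Myc.

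In primed ES cells, where 50.7% of 16177 genes were called (26.5% enriched and 24.2% depleted), all 4 were called. Sox2 was enriched by 2.20 ± 0.08 (edgeR adjusted p of 8.90e-10) and stood above 97.9% of genes. Myc lay at the other end, depleted at −2.12 ± 0.14 (7.23e-08), below all but 1.67% of genes. Pou5f1 was depleted at −0.64 ± 0.07 (4.68e-06). Klf4 was enriched by 0.51 ± 0.19 (edgeR adjusted p of 0.0458), and that call was lost with all 20 libraries fitted together (0.213), with DESeq2 (0.215) and without 3 of the 4 libraries (0.0998 to 0.243).

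In MEFs 55.3% of 16198 genes were called (26.6% enriched and 28.7% depleted), and 2 of the 3 members tested. Klf4 was enriched by 0.92 ± 0.13 (edgeR adjusted p of 2.76e-04) and Myc depleted at −0.73 ± 0.11 (3.78e-04). Pou5f1, at 7 reads in P-bodies and 5 in the cytoplasm, had a ratio of 1.68 (95% exact counting interval 0.458 to 6.70), which leaves either direction within its interval, and Sox2 had too few reads to be tested. The 6 lung epithelium markers summed to 6.12 and 89.0 CPM in the 2 MEF P-body libraries and to 0.0166 CPM or less in MEF cytoplasm, where 5 of the 6 were at 0, and their part in these values was not tested.

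At day 3 the log2 ratios of all 4 factors were negative in control cells, where few genes passed the test. The day 3 values hold cassette and endogenous RNA alike, and the cassette carries all 4 factors in 1 transcript. They may therefore not be 4 independent measures, and the part of cassette RNA in them was not tested. Depletion was called for 0.45% of 15786 genes, and for 1 of the 4, Sox2 at −1.04 ± 0.13 (edgeR adjusted p of 0.0495). The other values lay just past the threshold, with Pou5f1 at −1.32 ± 0.24 (0.0597), Klf4 at −1.01 ± 0.16 (0.0504) and Myc at −0.68 ± 0.11 (0.0504). All 4 were called as depleted under DESeq2, without a filter and in a fit of all 20 libraries. Far more genes were depleted under these settings, with 1166 of 15786, 1128 of 19411 and 1950 of 19616 called in that order. The Sox2 call was lost without day 3 control cytoplasm replicate 2 (edgeR adjusted p of 0.0691). The share of all genes called rested on the P-body libraries, since 102 genes were called in either direction with both, 8752 without replicate 1 and 4896 without replicate 2, and in each of these 2 fits all 4 factors were called as depleted. With Nudt21 knockdown 12.8% of 15995 genes were depleted, and all 4 were called, at −1.13 ± 0.13 for Pou5f1, −1.17 ± 0.15 for Sox2, −1.20 ± 0.16 for Klf4 and −0.90 ± 0.14 for Myc (edgeR adjusted p of 5.06e-04 to 0.00202). The enrichment of each factor differed between knockdown and control by 0.22 or less on the log2 scale, with SEs of 0.20 to 0.30, and none of these differences was called, in a contrast that called 0.0118% of 16973 genes (2 by edgeR, with 819 at an unadjusted p under 0.05 and 26 by DESeq2). Without day 3 control P-body replicate 1 this contrast called 2185 genes, and the Pou5f1 difference came to 0.65 ± 0.19 and was called (edgeR adjusted p of 0.0368).

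**Figure D3:**
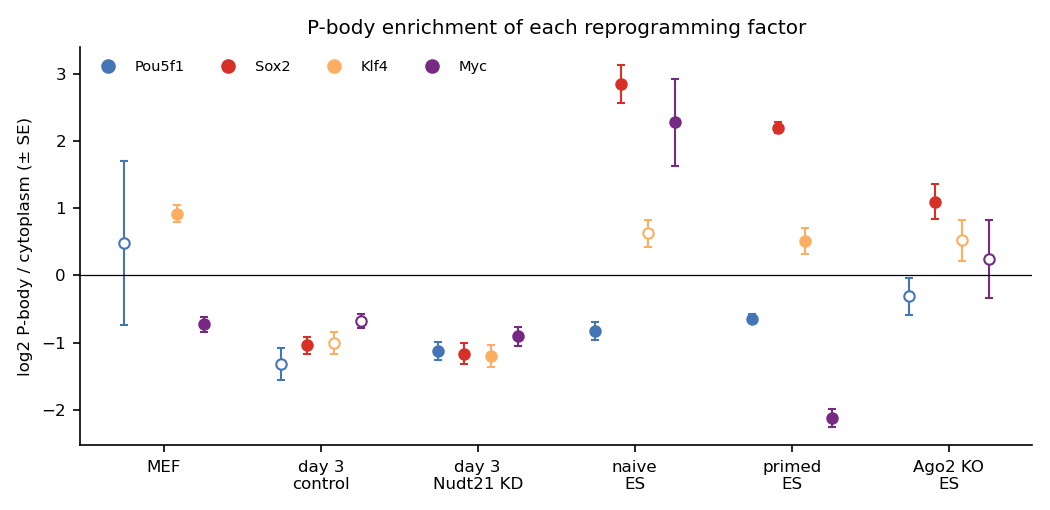
Log2 ratio of P-body to cytoplasmic RNA with its SE (bars) for each gene in 6 cell states, each from 2 libraries per fraction. Filled points passed an edgeR adjusted p of 0.05 and open points did not, and Sox2 in MEFs is missing because it had too few reads. At day 3 all points lie below 0, and in naive and primed cells Sox2 lies above 2 while Pou5f1 lies below 0.

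Whether enrichment differed between states was tested directly by the difference of log2 ratios. These contrasts share libraries, so they are not independent of each other. In those with day 3, cassette and endogenous RNA cannot be told apart. Such contrasts may thus compare different transcripts of a gene and not the same mRNA in both states. From day 3 control to naive ES cells, a higher enrichment was called for 14.6% of 17619 genes (2573 higher and 1177 lower, or 2267 and 1675 with DESeq2 size factors) and for 3 of the 4 factors. Sox2 differed by 3.88 ± 0.35, Myc by 2.97 ± 0.46 and Klf4 by 1.63 ± 0.28 (edgeR adjusted p of 3.75e-04, 0.00237 and 0.00444), while Pou5f1 was at 0.49 ± 0.33 (0.361) and was called without day 3 control P-body replicate 1 (0.0103). From MEF to day 3 control the enrichment of Klf4 was lower by a log2 difference of −1.88 ± 0.22 (edgeR adjusted p of 0.00103), in a contrast that called 5.13% of 17488 genes as lower, and that of Myc moved by 0.09 ± 0.16 (0.740). Pou5f1 and Sox2, at −1.77 ± 1.11 and −1.62 ± 0.82 (0.318 and 0.313), had few MEF reads, and Pou5f1 was called without day 3 control P-body replicate 1 (edgeR adjusted p of 0.0456). From MEF to naive cells only Myc was called, at 2.83 ± 0.47 (edgeR adjusted p of 9.52e-04), where 21.5% of 18143 genes had a higher enrichment, and Klf4 was at −0.48 ± 0.25 (0.159). Without naive cytoplasm replicate 2 Klf4 was at −0.73 ± 0.17 and was called (edgeR adjusted p of 0.00545). Between naive and primed cells Myc changed most, at −4.26 ± 0.51 (edgeR adjusted p of 7.71e-04), where 13.9% of 17199 genes were lower. Sox2 was at −0.51 ± 0.31, Pou5f1 at 0.33 ± 0.16 and Klf4 at 0.02 ± 0.28 (edgeR adjusted p of 0.274, 0.180 and 0.982) in that contrast, and the sign of Klf4 changed with the scaling. Without naive cytoplasm replicate 1 the Pou5f1 difference was called (8.80e-05), and without replicate 2 that of Sox2 was (edgeR adjusted p of 4.72e-07).

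The same lists were counted for P-body enrichment. In naive P-bodies 4 of 18 OCT4-SOX2 partners and targets were enriched and 5 depleted (median −0.138 against −0.0593 over all genes). Over all genes tested 22.6% were enriched and 15.4% depleted, shares against which the naive counts of each list are to be read. Nanog (−0.61 ± 0.10) and Esrrb (−0.88 ± 0.11) were depleted like Pou5f1, and Trim28, a corepressor gene, lay at −0.95 ± 0.10, while Lefty1 was enriched by 3.58 ± 0.33. Of 16 KLF, SOX and POU relatives tested 7 were enriched and 1 depleted (median −0.168). Klf5 and Klf6 were enriched by 0.74 ± 0.12 and 2.74 ± 0.11, and Klf2 was at −0.37 ± 0.18 (edgeR adjusted p of 0.163). In the MYC network 2 were enriched and 1 depleted of 11, with Mga, a MAX partner, at 2.02 ± 0.13 and Max at −2.54 ± 0.24. Of 15 MYC targets 5 were enriched, led by Eif4e (1.66 ± 0.12), and 3 depleted, with Srm at −0.65 ± 0.10.

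In primed cells 26.5% of all genes tested were enriched and 24.2% depleted. Of the 16 relatives tested 9 were enriched and 3 depleted (median 0.531 against 0.00063), with Klf6 at 1.66 ± 0.07, Klf5 at 0.52 ± 0.09 and Klf10 at −0.39 ± 0.07. Of the MYC targets 10 of 15 were depleted and 4 enriched (median −0.258), with Cad at −1.58 ± 0.05 and Ccnd2 at 1.5 ± 0.11. The OCT4-SOX2 list split into 7 enriched and 6 depleted genes of 18 (median 0.116), between Spp1 at 1.57 ± 0.07 and Tdgf1 at −1.84 ± 0.04. In the MYC network 4 were enriched and 3 depleted of 11 (median 0.109), with Mxd4 at 1.09 ± 0.18. Max was depleted in primed cells (−1.97 ± 0.17), in MEFs (−1.64 ± 0.14) and with Nudt21 knockdown (−1.15 ± 0.12), and was at −1.28 ± 0.33 in day 3 control (edgeR adjusted p of 0.103). The list medians in day 3 control were 0.369 for OCT4-SOX2 partners and targets, 0.0426 for relatives, −0.481 for the MYC network and 0.138 for MYC targets, against −0.00783 over all genes.

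The Nudt21 knockdown was also compared with the control at the level of each fraction. In the cytoplasm, where 24.6% of 15990 genes rose, all 4 factors rose. Cassette RNA counts toward all 4, so these may not be 4 independent rises. Pou5f1 stood at 403 and 437 CPM, Sox2 at 306 and 386 CPM, Klf4 at 554 and 664 CPM and Myc at 499 and 584 CPM, each above both control libraries. The folds were 2.22, 2.45, 1.99 and 1.68 (edgeR adjusted p of 3.47e-10, 2.20e-09, 8.15e-09 and 1.37e-07). In P-bodies, where 9.39% of 15960 genes rose, Pou5f1, Sox2 and Klf4 rose by 1.37 ± 0.25, 1.19 ± 0.19 and 0.82 ± 0.22, and Myc was at 0.54 ± 0.18 (edgeR adjusted p of 0.0667). The Klf4 call was lost without day 3 Nudt21 P-body replicate 2 (edgeR adjusted p of 0.308), and Myc was called under DESeq2 (0.0189) and without either day 3 control P-body library (0.0132 and 0.0260). Per coding kb the cytoplasmic gains over MEF were 396 ± 23.1 for Pou5f1, 360 ± 58.5 for Sox2, 390 ± 53.2 for Klf4 and 341 ± 44.2 for Myc. The fibroblast markers were lower still in these libraries, at 2302 to 2305 CPM, and the epithelial markers were at 279 to 293 CPM, and their part in the difference was not tested. Fgf4 rose by 1.70 ± 0.07 in this cytoplasm, to 191 to 207 CPM, Sall4 by 1.64 ± 0.39 and Mxd4, a MAX partner that opposes MYC, by 1.22 ± 0.07. Klf9 and Srm rose by 0.25 ± 0.08 and 0.37 ± 0.06. Klf5 fell by 0.67 and Ccnd2 by 1.34 on the log2 scale, and Sox11 (−0.96 ± 0.08), Mxd1 (−0.72 ± 0.16) and Spp1 (−0.55 ± 0.06) were lower too.

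In Ago2 KO ES cells enrichment was called for 5.47% of 16808 genes, and for 1 of the 4. Sox2 held 184 and 191 CPM in P-bodies against 86.2 and 84.9 CPM in the cytoplasm, a log2 ratio of 1.1 ± 0.26 (edgeR adjusted p of 0.0383) that passed 87.1% of genes. The call was lost with DESeq2 size factors (0.0514) and without either P-body library (0.483 and 0.388). Klf4 had 379 and 402 CPM against 221 and 304 CPM (0.52 ± 0.31, edgeR adjusted p of 0.338, or 0.0368 without cytoplasm replicate 2), and Pou5f1 had 297 and 301 CPM against 407 and 321 CPM (−0.31 ± 0.28, 0.544). Myc had 11 to 17 reads per library and a log2 ratio of 0.25 ± 0.58. The Ago2 KO libraries were counted with another tool and annotation and have no wild-type libraries in their table. The log2 ratio of Sox2 was 2.85 in naive cells of the fraction table and 1.1 here, and the difference was not tested.

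In naive ES cells, polysome RNA was set against total RNA to ask how far each mRNA sat on ribosomes. In controls Pou5f1 stood at 1627, 1639 and 1679 CPM in polysomes and 1153, 1168 and 1369 CPM in total RNA. Every polysome value lay above every total value. Its log2 ratio was 0.26 ± 0.07 (edgeR adjusted p of 0.0102), in a comparison that called 42.9% of 15411 genes (18.8% higher and 24.1% lower) and 2 of the 4 members. Sox2 stood at 772, 743 and 706 CPM in polysomes and 765, 765 and 800 CPM in total RNA, groups that overlap on this scale, with a log2 ratio of −0.24 ± 0.06 (0.00414) after scaling. Klf4 stood at 152, 152 and 140 CPM in polysomes and 120, 123 and 117 CPM in total RNA. Its groups did not overlap, and its log2 ratio was 0.13 ± 0.06 (edgeR adjusted p of 0.0806, or 0.0461 without control total RNA replicate 3). Myc had 13 to 26 reads in polysomes and 18 to 33 in total RNA, and was not called at −0.51 ± 0.28 (0.159). The Pou5f1 call was lost without control total RNA replicate 1 (edgeR adjusted p of 0.0740) or replicate 2 (0.0710).

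In controls 24.1% of all genes tested were lower in polysomes and 18.8% higher. Of the list genes, 12 of 18 OCT4-SOX2 partners and targets were lower and 3 higher (median −0.337 against 0.0233), with Nanog at −0.23 ± 0.06, Esrrb at −0.33 ± 0.06 and Sall4 at −0.79 ± 0.07. Trim28 was at −1.89 ± 0.07, and Dppa5a, a small RNA-binding protein gene, was highest at 0.47 ± 0.07. Of 17 relatives 6 were lower and the others were not called, with Klf5 at −0.56 ± 0.07 and Klf2 at −0.27 ± 0.08. In the MYC network Max (0.24 ± 0.06) and Mxi1 (0.38 ± 0.07) were among the 3 higher genes and Mycn (−0.46 ± 0.06) among the 3 lower ones of 11. Of 15 MYC targets 4 were higher, led by Eif4e (0.44 ± 0.08), and 7 lower, with Cad at −2.69 ± 0.07.

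With the DDX6 degron, Pou5f1 stood at 1595, 1557 and 1568 CPM in polysomes and 1262, 1305 and 1226 CPM in total RNA, a log2 ratio of 0.13 ± 0.04. Sox2 stood at 650, 646 and 654 CPM against 700, 716 and 716 CPM (−0.31 ± 0.04), and Klf4 at 125, 141 and 140 CPM against 106, 111 and 111 CPM (0.13 ± 0.05). All 3 passed the test (edgeR adjusted p of 0.00978, 5.25e-07 and 0.0335), where 50.9% of 15638 genes were called (24% higher and 26.8% lower). In a fit of all 12 libraries only Sox2 was called (Pou5f1 at 0.0665 and Klf4 at 0.0522), and the Klf4 call was also lost without DDX6 degron polysome replicate 2 or 3 or total RNA replicate 1 (0.128 to 0.163).

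The change of this ratio with the degron was −0.13 ± 0.08 for Pou5f1, −0.08 ± 0.06 for Sox2, −0.01 ± 0.07 for Klf4 and 0.74 ± 0.39 for Myc. None was called by edgeR at an adjusted p of 0.05, where 0 of 16345 genes (0%) were, 844 genes had an unadjusted p under 0.05, and DESeq2 called 4 genes, no member among them. Total RNA of the 4 factors was not called either (509 of 15380 genes, 3.31%), with Sox2 at −0.13 ± 0.05 and Myc at −0.71 ± 0.27 (edgeR adjusted p of 0.149 and 0.174). This turned on single libraries. Without control total RNA replicate 3, Pou5f1 was called as higher (0.13 ± 0.04) and Klf4 (−0.15 ± 0.05) and Myc (−0.86 ± 0.30) as lower (edgeR adjusted p of 0.0293, 0.0323 and 0.0484), among 3373 genes. Without DDX6 degron total RNA replicate 1 only 6 genes were called. Polysome RNA of Sox2 was lower with a log2 fold change of −0.19 ± 0.04 (edgeR adjusted p of 0.0209), all 3 degron values lying below all 3 control values, where 2.36% of 15625 genes were lower. That call was lost when any of 5 of the 6 libraries was left out (0.0512 to 0.111).

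**Figure D4:**
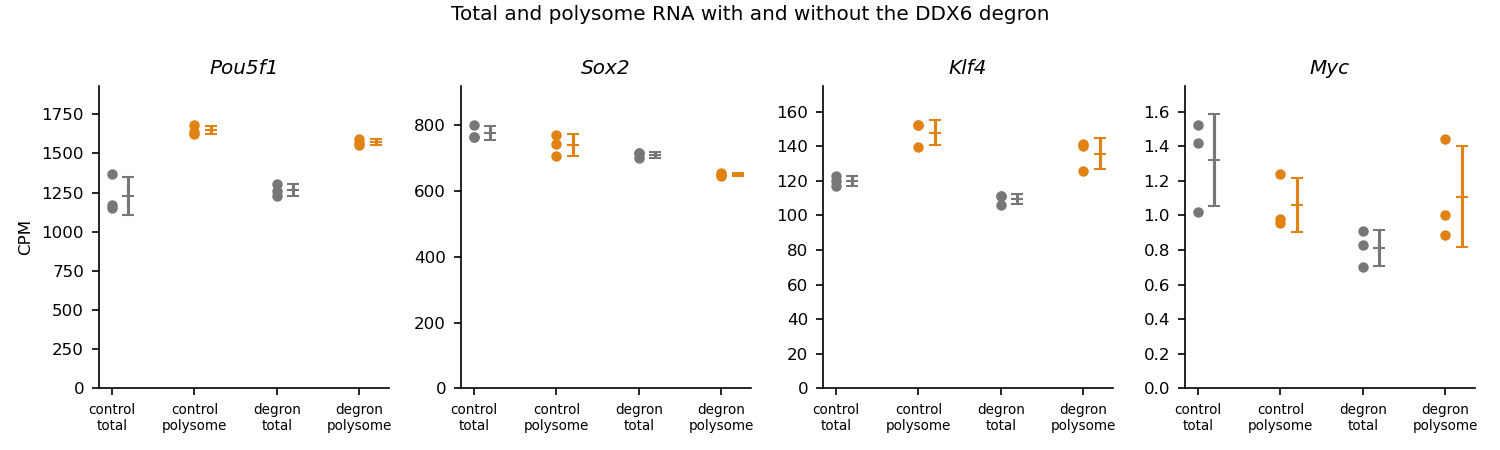
Level in CPM in each library of total RNA (grey) and polysome RNA (orange) in control and DDX6 degron naive ES cells, with the mean and SD of 3 libraries beside the points, on axes that start at 0. Pou5f1 and Klf4 lie higher in polysomes than in total RNA in both groups, and degron Sox2 values in polysomes lie between 646 and 654.

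The pattern of each gene over the 20 fraction libraries was compared with that of 10267 genes with a mean of at least 10 CPM. The libraries share cell states, fractions and depth, so the correlations are descriptions. Pou5f1 was most like Pipox (Pearson r of 0.985 on log2 CPM), Fgf4 (0.984) and Shmt1 (0.979), where Pipox and Shmt1 encode enzymes of amino acid metabolism. Sox2 was most like Dact2 (0.982), Pipox (0.973) and Chn2 (0.970). Klf4 was most like Gss (0.950), Prss35 (0.922) and Fam76a (0.906), and Myc was most like Rgs12 (0.973), Spry4 (0.971) and Inpp1 (0.971), with Spry4 encoding an inhibitor of growth factor signalling. Among the members themselves Pou5f1 and Sox2 had an r of 0.966, and the other pairs lay between −0.162 and 0.266. By Spearman correlation only Spry4 of these genes stayed among the 3 nearest.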

How the data were processed

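P-body and cytoplasm libraries were made with a low-input poly(A) kit that does not mark strand, aligned to mm10 with HISAT2 and counted over RefSeq exons with featureCounts by the authors. The deposited values are counts, of which 17.6% to 25.7% per library are not whole, those of Pou5f1 in several libraries among them. The Ago2 KO and polysome tables hold salmon estimated counts per gene deposited by the authors. The versions of these tools are not given in the sources used here. Tables were never combined. The authors' own DESeq2 comparisons, which hold fold changes and p-values, were not used, and 0 columns were left unmapped.

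Counts were rounded and tested with the edgeR quasi-likelihood test (version 4.0.16, limma 3.58.1, R 4.3.3, two-sided, TMM scaling) on the libraries of each comparison, leaving out genes whose reads came to fewer than 10 in all. Genes with a Benjamini-Hochberg adjusted p under 0.05 over all genes tested were called. The SE is the log2 fold change divided by the square root of F. A difference in enrichment is the interaction of fraction and state. Alternatives were DESeq2 1.42.0, its size factors, no filter, filterByExpr, 1 fit of a whole table, a replicate block and leaving out each library. Levels are CPM of the library total (numpy 2.4.6, pandas 2.3.3). Intervals of count ratios are exact binomial (95%, scipy 1.17.1) and cover counting error only. The code was tested on simulated counts.

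The 4 factors, the gene lists and the tests were chosen with earlier results of these data known. Named from the lists were Nanog, Klf2, Klf5, Mycn, Mycl, Max, Esrrb, Sall4, Lin28a and, per list and comparison, the called gene with the largest change in either direction at a mean of at least 10 CPM. Likeness was the highest Pearson r.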

Additional observations from a re-analysis of the deposited data

Results flagged for a closer look

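The difference in P-body enrichment between cell states passed an interaction test for 3 of the 4 factors. Over all genes tested, 21.3% were called in either direction between naive cells and day 3 control and 14.7% between day 3 control and MEFs. The shares were 41.3% between naive cells and MEFs and 25.3% between primed and naive cells. In contrasts with day 3 control, cassette and endogenous RNA cannot be told apart, so different transcripts of a gene may be compared. Sox2 differed by 3.88 ± 0.35 on the log2 scale between naive ES cells and day 3 control. Klf4 differed by 1.63 ± 0.28 in the same contrast and by −1.88 ± 0.22 between day 3 control and MEFs. Myc differed by 2.97 ± 0.46 between naive cells and day 3 control, by 2.83 ± 0.47 between naive cells and MEFs, and by −4.26 ± 0.51 between primed and naive cells. All these contrasts of naive cells rest on the same 4 naive libraries, in which Myc had 16 cytoplasmic and 63 P-body reads.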

How the results depend on the processing

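With 2 libraries per arm, a fit that leaves out 1 of them takes the spread from the other groups, and the lone library is assumed to vary like them. In the P-body enrichment of day 3 control 1 of the 4 factors was called, against 4 with DESeq2, without a filter, with the replicate block or in 1 fit of all groups, 3 with filterByExpr, and 1 to 4 when a library was left out. Leaving out a library gave 1 to 4 called factors in naive enrichment, 0 to 2 in Ago2 KO, 1 to 2 in the differences of day 3 control and MEF, naive and MEF, and primed and naive, and 0 to 1 in that of Nudt21 knockdown and control. It gave 1 to 3 in ribosome occupancy of controls, 0 to 3 in total RNA and 0 to 1 in polysome RNA. With DESeq2 size factors 0 factors were called in Ago2 KO, and in 1 fit of all groups 1 was called in occupancy of the degron cells.

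The sign turned only for values that were not called by edgeR. The Klf4 difference of primed and naive enrichment was −0.0543 with DESeq2 size factors, −0.0516 with DESeq2, −0.0955 without a filter, −0.0864 with filterByExpr, −0.0953 in 1 fit and −0.285 to 0.267 when a library was left out. The Klf4 change in occupancy was 0.00724 without a filter and −0.0389 to 0.0356 when a library was left out. Leaving out a library gave −0.716 to 0.130 for Sox2 in naive against day 3 cytoplasm, −0.00740 to 0.189 for the Myc difference of day 3 and MEF, −0.00746 to 0.128 for Pou5f1 in total RNA and −0.166 to 0.187 for Myc in polysome RNA. In the difference of Nudt21 knockdown and control it gave −0.108 to 0.653 for Pou5f1, −0.346 to 0.108 for Sox2, −0.493 to 0.0838 for Klf4 and −0.446 to 0.00554 for Myc. The cause was not tested.

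Counts over all genes moved as well. In day 3 control enrichment 102 genes were called, against 2105 with DESeq2, 1940 without a filter, 202 with filterByExpr, 802 with the block, 3308 in 1 fit and 82 to 8752 when a library was left out (8752 without P-body replicate 1). For Ago2 KO 1095 became 716 with DESeq2 size factors, 1731 with DESeq2, 2643 without a filter, 4178 with the block and 446 to 5617 when a library was left out. In 1 fit 3501 became 2100 for Nudt21 enrichment, 8209 became 5128 for primed enrichment, 7934 became 4877 for Nudt21 cytoplasm and 2908 became 5887 for Nudt21 P-bodies. The difference of Nudt21 and control called 2 genes, against 26, 62 and 1 with DESeq2, no filter and the block and 0 to 2185 when a library was left out, and the change in occupancy 0 against 4, 16, 6 and 0 to 52. For total RNA 509 became 832 with DESeq2, 863 without a filter, 82 with the block, 1138 in 1 fit and 6 to 3373 when a library was left out, and for polysome RNA 666 became 1029 without a filter, 362 in 1 fit and 179 to 951. Leaving out a library also gave 2056 to 10018 for naive enrichment (5941), 1017 to 5729 for Nudt21 enrichment, 5595 to 9976 for MEF enrichment (8955), 259 to 5546 for the difference of day 3 and MEF (2575), 1668 to 6018 for that of naive and day 3 (3750) and 2293 to 7089 for that of primed and naive (4349). For levels it gave 2242 to 9799 in primed against naive cytoplasm (7056), 7112 to 12203 in naive against day 3 cytoplasm (10942), 6801 to 13509 in these P-bodies (10235), 4348 to 7199 in day 3 against MEF P-bodies (6653) and 1365 to 7103 in Nudt21 P-bodies. DESeq2 size factors moved the median difference of naive and day 3 enrichment over all genes from 0.0789 to −0.0682, and kept the 3 called factors (Sox2 at 3.74, Myc at 2.82 and Klf4 at 1.48).

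Same-numbered libraries had correlations of their deviations from −0.106 to 0.542, highest in Ago2 KO. Fractions were taken from the same preparations, but the sources used here do not say that equal numbers mark one, and not every pair correlated above 0.1, so no pairing was assumed. The block called 4 factors in naive enrichment, with Klf4 gained (edgeR adjusted p of 0.0197), and 3 in primed enrichment, with Klf4 lost (0.0630), and moved no count of called factors by over 1.5 times except in day 3 control. Levels scaled by TMM were 0.842 to 1.16 times those by library total. In MEFs and in naive cells few reads limit Pou5f1, Sox2 and Myc.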
